A study of Bos indicus with 9 samples.

Results

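Corpora lutea of cows that had received equine chorionic gonadotropin (eCG) under either of the study's regimens were compared with those of cows that had received none. All 9 arrays of the series entered, chosen by their labelled treatment: 6 from eCG-treated cows and 3 from controls. Every cow was a Nelore crossbred (Bos indicus) aged 2 to 5 years, and every cow, controls included, had its cycle synchronised with estradiol benzoate and a device that releases progesterone. The 3 stimulated cows were given 400 IU of eCG on day 8 of that protocol and the 3 superovulated cows 2000 IU on day 4, so dose and day changed together. Each array held total RNA from the luteal tissue of 1 cow at day 6 after ovulation, and the labels call the arrays of a group biological replicates.

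The corpus luteum forms from the wall of the ovulated follicle and secretes progesterone, which prepares the uterus and maintains pregnancy. Steroidogenic luteal cells, a dense capillary bed, fibroblasts and immune cells, macrophages among them, make up the tissue. In the cow eCG acts on both the follicle stimulating and the luteinising hormone receptor. It is given at low dose to support the growth of the ovulatory follicle and at high dose to ripen many follicles at once.

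Signals are log2 values of Affymetrix probe sets, each a group of short probes against 1 transcript. A probe set's level depends on its probes as well as on the transcript, so levels are compared between cows and not between genes. After the lost decimal mark had been restored and array controls removed, 23970 probe sets could be tested, and the brightest probe set of each named gene stood for it, which gave 9139 genes. Array medians lay between 4.18 and 4.25, and the correlation between arrays was between 0.986 and 0.994 for pairs of a treated and a control cow, as it was for pairs of treated cows. The tissue carried its defining luteal transcripts in both groups. STAR, the cholesterol carrier of steroidogenesis, read 14.76 ± 0.11 in controls (SD, n = 3) and 14.73 ± 0.11 in treated cows (SD, n = 6). CYP11A1, which makes pregnenolone from cholesterol, read 14.16 ± 0.11 and 14.12 ± 0.14, and oxytocin (OXT), a hormone of large luteal cells, 13.67 ± 0.08 and 13.65 ± 0.21 in the same order.

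The first question was in which transcripts all treated cows lay on the same side of all controls. In 282 probe sets all 6 treated cows read above all 3 controls (1.18% of those tested), and in 274 all 6 read below (1.14%). By gene, 135 of 9139 were higher without overlap (1.48%) and 86 were lower (0.941%). No test stands behind these counts, and they do not by themselves show a difference between the groups: each of the 84 ways to split 9 cows into 6 and 3 can leave probe sets without overlap. Most steps were small. Of the 282 higher probe sets 219 differed by less than 0.5 on the log2 scale and 23 by more than 1, and of the 274 lower ones 223 by less than 0.5 and 11 by more than 1. The median log2 fold change was 0.26 among the higher and -0.25 among the lower probe sets, values that the selection itself shapes. Across all probe sets the median was -0.001. In whole tissue a change in the number of cells of a type and a change in their RNA cannot be told apart.

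Technical readings of the arrays also differed between the groups. The difference between the 3' and 5' probe sets of cyclophilin, which grows as RNA is degraded, was 0.14, 0.18 and 0.16 in controls and 0.23 to 0.32 in treated cows, so that all 6 treated cows lay above all controls (2-sided exact permutation p = 0.0119, the smallest that 84 splits allow; 0.071 adjusted over the 6 transcripts measured this way). It was also larger on average in treated cows for GAPDH (0.039), EF1A (0.144), eIF-4E (0.117) and glutathione S-transferase (0.167), and smaller for actin (-0.047), all with overlap. The mean of the Bacillus control probe sets was 8.43 ± 0.06 in controls (SD, n = 3) and 8.62 ± 0.05 in treated cows (SD, n = 6), again without overlap (2-sided exact permutation p = 0.0119). The part of these readings in the gene differences was not tested.

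No probe set passed the test of treated against control cows. In limma, with a mean for each of the 3 groups and Benjamini-Hochberg adjustment over 23970 probe sets, 0 had an adjusted p under 0.05. The smallest adjusted p was 0.21, for a probe set of RPUSD3, a mitochondrial pseudouridine synthase, that was lower in all treated cows. RPUSD3 was named after its value was seen. Its 3 probe sets differed by -0.93 to 0.18, so that not all of them were lower. At an unadjusted p under 0.05 there were 619 higher (2.58%) and 610 lower probe sets (2.54%), together 5.13% of those tested. Every pooled difference given in the following paragraphs, of all treated against control cows, therefore did not pass. The other ways of fitting listed in the closing section also gave 0 passing probe sets in this comparison.

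Among the genes higher in all treated cows, CERT1 came first by p. This lipid carrier brings ceramide to the Golgi for sphingomyelin synthesis. CERT1 read 5.71, 5.71 and 5.80 in control cows, 6.52, 6.44 and 6.53 in stimulated cows and 6.08, 6.10 and 6.30 in superovulated cows. The 3 groups formed 3 separate bands, with the stimulated cows on top. Its log2 fold change was 0.59 (SE 0.07, limma adjusted p = 0.222), made of 0.76 in the stimulated and 0.42 in the superovulated cows. LOC510377, a locus without a gene name, had the same order of groups, at 7.06, 7.08 and 6.91 in controls, 7.83, 7.64 and 7.78 after stimulation and 7.27, 7.38 and 7.29 after superovulation (log2 fold change 0.51, SE 0.07, limma adjusted p = 0.297). The second LOC510377 probe set differed by 0.53 in stimulated and by 0.06 in superovulated cows, with overlap. CERT1 and LOC510377 were named because they had the smallest unadjusted p among the higher genes without overlap.

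Larger steps were found for LYZ2, AIF1, MAN2B1 and DOCK10. LYZ2, a lysozyme that cleaves bacterial cell walls, read 9.23, 8.05 and 8.34 in control cows, 10.33, 10.58 and 10.58 in stimulated cows and 10.09, 9.91 and 10.98 in superovulated cows. The lowest treated cow stood 0.68 above the highest control, and the regimens lay on top of each other. The log2 fold change was 1.87 (SE 0.31, limma adjusted p = 0.530), a 3.66-fold difference. Cattle carry several lysozyme genes with similar sequence, and the 3 other probe sets under this symbol were dim and moved between -0.08 and 0.16.

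AIF1, a calcium-binding protein of macrophages also known as IBA1, read 7.33, 7.46 and 6.28 in controls, 8.34, 9.15 and 8.77 in stimulated cows and 8.52, 9.09 and 8.34 in superovulated cows. Again no treated cow reached down to a control, and control 3 was the lowest of all. Its log2 fold change was 1.68 (SE 0.31, limma adjusted p = 0.594), a 3.21-fold difference. MAN2B1, the lysosomal alpha-mannosidase that trims sugars from glycoproteins, read 6.34, 5.93 and 6.32 in controls, 7.51, 7.20 and 8.07 in stimulated cows and 8.04, 7.09 and 7.55 in superovulated cows. All controls lay in a narrow band under a wider treated band (log2 fold change 1.38, SE 0.25, limma adjusted p = 0.594). DOCK10, a guanine nucleotide exchange factor, read 3.13, 3.08 and 3.53 in controls against 3.99 to 4.74 in treated cows, a log2 fold change of 1.0 (SE 0.18). The second DOCK10 probe set differed by 0.09.

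The other genes among the 12 higher ones ranked by p had smaller differences. DOK2, an adaptor of tyrosine kinase signalling in blood cells, was higher by 0.47, but its other 2 probe sets differed by -0.03 and 0.09. ACADL, the long-chain acyl-CoA dehydrogenase of fatty acid oxidation, was higher by 0.83 (SE 0.17), and its second probe set by 0.55. ASL, the urea cycle enzyme argininosuccinate lyase, was higher by 0.48, its second probe set by 0.10, and SLC25A51, which imports NAD+ into mitochondria, by 0.46. LZTS2, a leucine zipper protein, was higher by 0.37. CHERP, a calcium homeostasis protein of the endoplasmic reticulum, was higher by 0.35, while its second probe set was lower by 0.14. These values show that probe sets of 1 gene did not always go the same way.

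**Figure D1:**
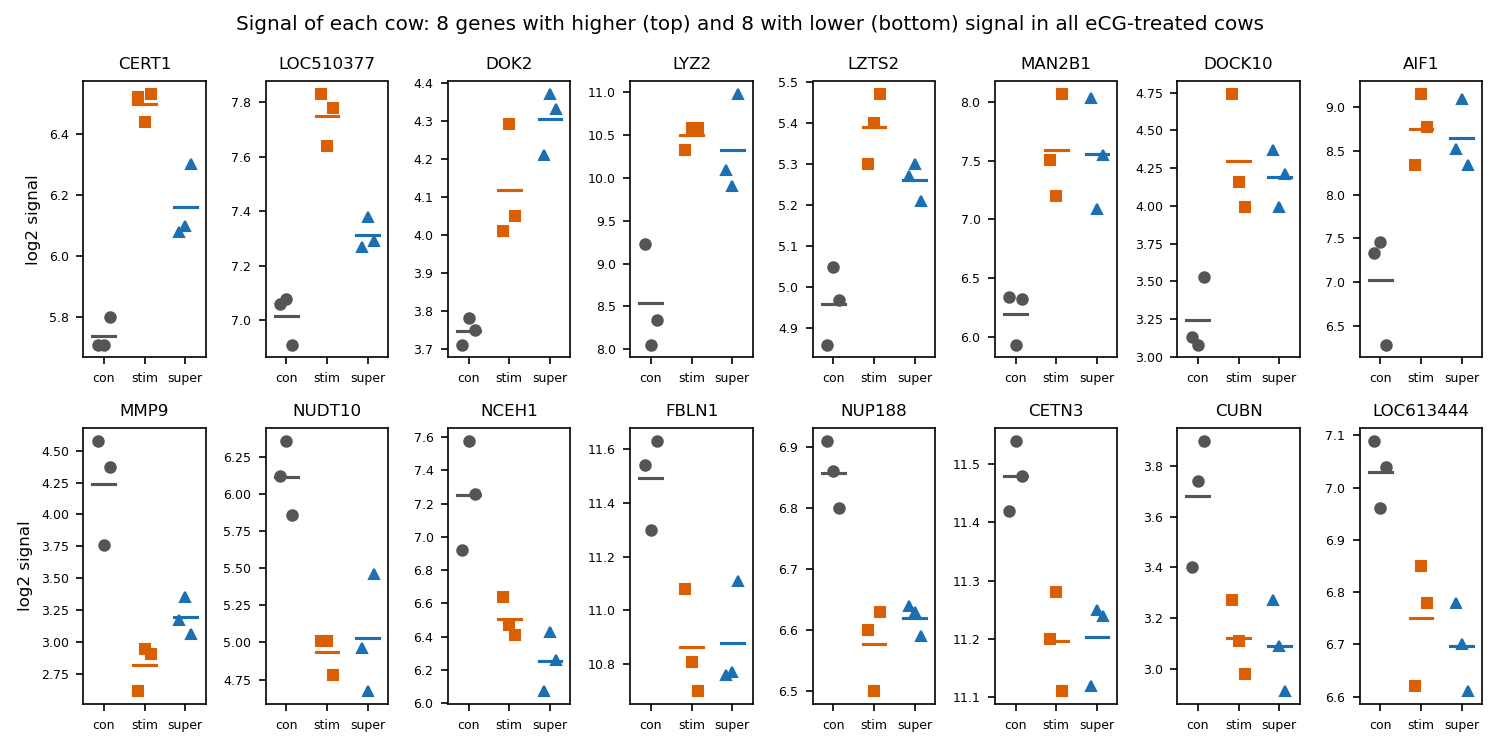
Log2 signal of each of the 9 cows (points) and group mean (line) for 8 genes that read higher (top) and 8 that read lower (bottom) in all eCG-treated cows, in order of unadjusted p; con, control; stim, stimulated; super, superovulated. Each panel has its own vertical axis, and in none of them does a treated cow overlap with a control; in CERT1 the stimulated cows, at 6.44 to 6.53, also lie above the superovulated cows, at 6.08 to 6.30.

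Among the genes lower in all treated cows, MMP9 came first by p. This gelatinase cuts denatured collagen and basement membrane and is stored in neutrophils. MMP9 read 4.58, 3.76 and 4.37 in control cows, 2.61, 2.94 and 2.90 in stimulated cows and 3.17, 3.35 and 3.06 in superovulated cows. All stimulated cows lay under all superovulated cows, and these lay under all controls. The log2 fold change was -1.23 (SE 0.18, limma adjusted p = 0.379), made of -1.42 and -1.05.

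NCEH1, which hydrolyses stored cholesterol esters and so frees cholesterol, was lower on both of its probe sets. The brighter NCEH1 probe set read 6.92, 7.58 and 7.26 in controls, 6.64, 6.47 and 6.41 in stimulated cows and 6.07, 6.43 and 6.26 in superovulated cows, a log2 fold change of -0.88 (SE 0.15, limma adjusted p = 0.550). The second read 5.24, 7.85 and 6.05 in controls, 3.47, 3.57 and 3.31 in stimulated cows and 2.84, 3.50 and 3.05 in superovulated cows. Treated cows lay close together on that probe set while the controls were spread over a wide range. Its log2 fold change of -3.09 (SE 0.50, limma adjusted p = 0.530) was the largest in size of all 556 probe sets without overlap.

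NUDT10, a phosphatase of inositol pyrophosphates, was likewise lower on both probe sets, by 1.13 (SE 0.18) and 0.49. On the brighter probe set NUDT10 read 5.86 to 6.36 in controls and 4.67 to 5.46 in treated cows. A near-identical neighbour in sequence, NUDT11, was also lower, by 0.79 on a probe set without overlap, and cross-hybridisation between both genes was not tested. NOS2, the inducible nitric oxide synthase, read 8.05, 8.39 and 6.59 in controls, 6.39, 5.88 and 5.55 in stimulated cows and 6.49, 6.49 and 6.44 in superovulated cows. Control 3 stood close to the treated cows, the other controls well above them (log2 fold change -1.47, SE 0.38, limma adjusted p = 0.928). The 3 other NOS2 probe sets differed by -0.35 to 0, and the mean over all 4 was -0.47. CCDC3, a secreted coiled-coil protein, was lower by 1.42 (SE 0.51), its 2 other probe sets by 0.45 and 0.20, and LEF1, a transcription factor of Wnt signalling, by 1.02 (SE 0.25). The other differences were smaller. KCNMA1, a calcium-activated potassium channel, differed by -0.90 and its 3 other probe sets by -0.01 to 0.04. FBLN1, an extracellular matrix protein, differed by -0.62, CUBN, an endocytic receptor, by -0.57, and LOC613444, a locus without a gene name, by -0.31. CETN3, a centrosomal centrin, differed by -0.28 and NUP188, a nuclear pore protein, by -0.26. Further probe sets differed by -0.40 for FBLN1, -0.25 and 0 for LOC613444, and -0.27 and -0.05 for CETN3, all with overlap.

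Several genes are represented by more than 1 probe set, which gives a second reading of the same RNA rather than a second cow. Of 164 genes with several probe sets and at least 1 without overlap, 7 had at least 2 higher and 4 at least 2 lower, and 0 had 1 probe set higher and another lower without overlap. The 7 were AGFG1, CEBPD, COMMD1, F13A1, FBXO34, GPNMB and VAV1, and the 4 were ISLR, NCEH1, NUDT10 and TCRA. TCRA has 24 probe sets, of which 22 overlapped, and only 10 of these 22 were lower. The counts of 7 and 4 are a description, as no share over all genes with several probe sets was computed. Only GPNMB, CEBPD and F13A1 of the 7 are described further. In 64 of the 164 a further probe set had the opposite sign or was at 0. All 3 probe sets of GPNMB, a transmembrane glycoprotein of macrophages and lysosomes, were higher without overlap, by 1.06, 1.15 and 1.16. The brightest GPNMB probe set read 9.44, 9.15 and 9.44 in controls, 9.86, 11 and 10.53 in stimulated cows and 9.86, 10.37 and 10.82 in superovulated cows. All 3 probe sets of CEBPD, a transcription factor of the acute phase and of myeloid cells, were higher too, by 0.67, 1.73 and 0.34. On the brightest, CEBPD read 11.92, 11.13 and 11.74 in controls against 12.14 to 12.40 in treated cows. For F13A1, the A subunit of coagulation factor XIII, which macrophages make, 2 of 3 probe sets were without overlap, at 1.78 and 0.55. The single largest difference upward, 2.38 (SE 0.50), belonged to the dimmer of 2 probe sets of FABP5, a fatty acid binding protein, and the brighter one differed by 0.91 with overlap. GPNMB and FABP5 were named after their values were seen.

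The next question was whether both regimens contributed. Taken alone, the stimulated cows were separated from the controls in 2758 probe sets (11.5%) and the superovulated cows in 2608 (10.9%), and 556 met the criterion in both regimens on the same side. Both regimens are set against the same 3 controls, and the criterion forces the same direction in each, so the direction is no result. The sizes are drawn together by the shared controls and by the selection too, and are given here as a description that does not test whether both regimens contributed. Among the 282 higher probe sets the median log2 fold change was 0.26 in the stimulated and 0.24 in the superovulated cows, and among the 274 lower ones it was -0.23 and -0.25. In 232 of the higher probe sets (82.3%) the smaller of both changes was at least 50% of the larger, as it was in 230 of the lower ones (83.9%). Under 25% it was in 4 higher and 2 lower probe sets. The larger change was the stimulated one in 157 of 282 higher and 131 of 274 lower probe sets.

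A direct test of superovulated against stimulated cows, in the same limma fit, gave an adjusted p under 0.05 in 0 of the 556. At an unadjusted p under 0.05 the regimens differed in 24 of the higher (8.51%) and 18 of the lower probe sets (6.57%), beside 9.65% of all probe sets. A p above the threshold does not show that the regimens acted alike. Among the higher genes the regimens were furthest apart by p in LOC510377 (0.73 stimulated, 0.30 superovulated), in TUFT1, the tooth enamel protein tuftelin (0.15 and 0.69), and in CERT1. TUFT1 read 3.60 to 3.82 in controls and 3.83 to 3.92 in stimulated cows, so that its separation from the stimulated cows was narrow, and 4.19 to 4.63 in superovulated cows. Among the lower genes they were furthest apart in RHOA, a small GTPase of the actin skeleton (-0.29 and -0.08), UBE2V1, a ubiquitin-conjugating enzyme variant (-0.24 and -0.06), and LARS2, the mitochondrial leucyl-tRNA synthetase (-0.31 and -0.99).

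**Figure D2:**
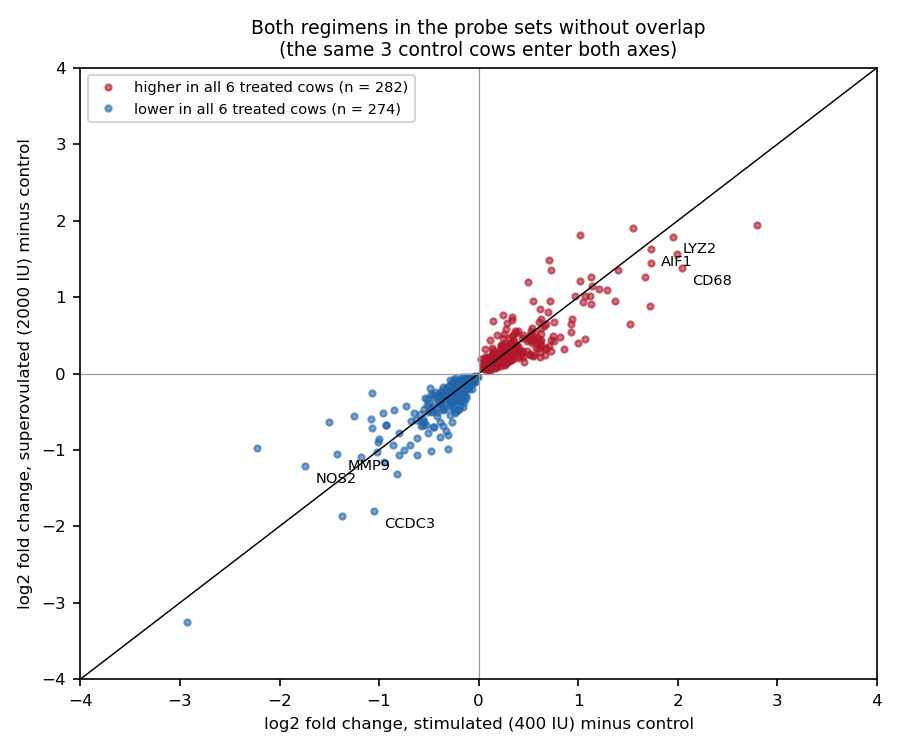
Each point is 1 of the 556 probe sets in which all 6 treated cows lie on the same side of all 3 controls, with its log2 fold change in stimulated (horizontal axis) and superovulated cows (vertical axis); the black line marks equal change. The same controls enter both axes and the criterion keeps points to the upper right and lower left, and both also draw the points towards the line, so the plot is a description and no test; in 82.3% of the higher and 83.9% of the lower probe sets the smaller change was at least 50% of the larger.

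Pooling also averaged over a gene whose regimens pointed apart. PRSS2, a serine protease of the trypsin family, read 8.24, 8.55 and 7.76 in control cows, 2.51, 2.18 and 2.25 in stimulated cows and 9.83, 8.94 and 8.57 in superovulated cows. Stimulated cows were far under the controls. Superovulated cows were above them, but cow 3, at 8.57, only just above control 2, at 8.55, and that difference did not pass (limma adjusted p = 0.797). The pooled log2 fold change of -2.47 (limma adjusted p = 0.222) describes neither regimen, since the separate values were -5.87 and 0.93. In the comparison of stimulated with control cows and in that of the regimens with each other, it alone of all probe sets passed (1 of 23970, or 0.00417%, in each).

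By function, the genes were grouped in 32 lists of luteal functions and cell types. Macrophage and myeloid markers had more members higher without overlap than any other list, 5 of 26 measured genes, and 0 lower, beside 1.48% higher over all genes. The lists were chosen with earlier results of these data known, so this ranking is a description and no independent support. The 5 higher members were LYZ2, AIF1, CD68, MPEG1 and CD86. CD68, a glycoprotein of macrophage lysosomes, read 5.32, 5.38 and 4.57 in controls, 6.14, 7.86 and 7.41 in stimulated cows and 5.59, 7.56 and 6.27 in superovulated cows (log2 fold change 1.71, SE 0.51, limma adjusted p = 0.929). Superovulated cow 1 lay just above the controls. MPEG1, a pore-forming protein of macrophages, was higher by 1.59 (SE 0.41) and CD86, a costimulatory ligand for T cells, by 1.02 (SE 0.33).

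All 26 myeloid genes had a positive log2 fold change, 14 of them at an unadjusted p under 0.05 (3.32% of all genes were higher at that p) and 0 after adjustment over all probe sets. Their median was 1.02, with 1.16 in stimulated and 0.74 in superovulated cows, beside a median of 0.004 over all genes. The mean signal over the list was 5.55, 5.88 and 4.86 in controls, 6.23, 7.07 and 6.61 in stimulated cows and 6.04, 6.90 and 5.88 in superovulated cows. On this mean superovulated cow 3 reached only the level of control 2, and control 3 was the lowest cow of all. Without control 3 the median of the list was 0.67. Many members rose and fell together from cow to cow, and cow 2 had the highest list mean in each group. The counts of members are therefore not independent readings. The members did not behave alike in both regimens. CD14, the lipopolysaccharide coreceptor of monocytes, read 4.07, 6.78 and 3.56 in controls, 5.22, 8.23 and 5.93 in stimulated cows and 7.07, 9.19 and 6.23 in superovulated cows, with wide overlap. The complement chain C1QB was higher by 2.11 in stimulated and by 0.35 in superovulated cows. FCGR3A, an immunoglobulin receptor of macrophages and natural killer cells, differed by 1.08 and 0.18, and the regimens differed at an unadjusted p of 0.000204 (limma adjusted p = 0.215). Only 2 genes of the list stand in another list as well.

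**Figure D3:**
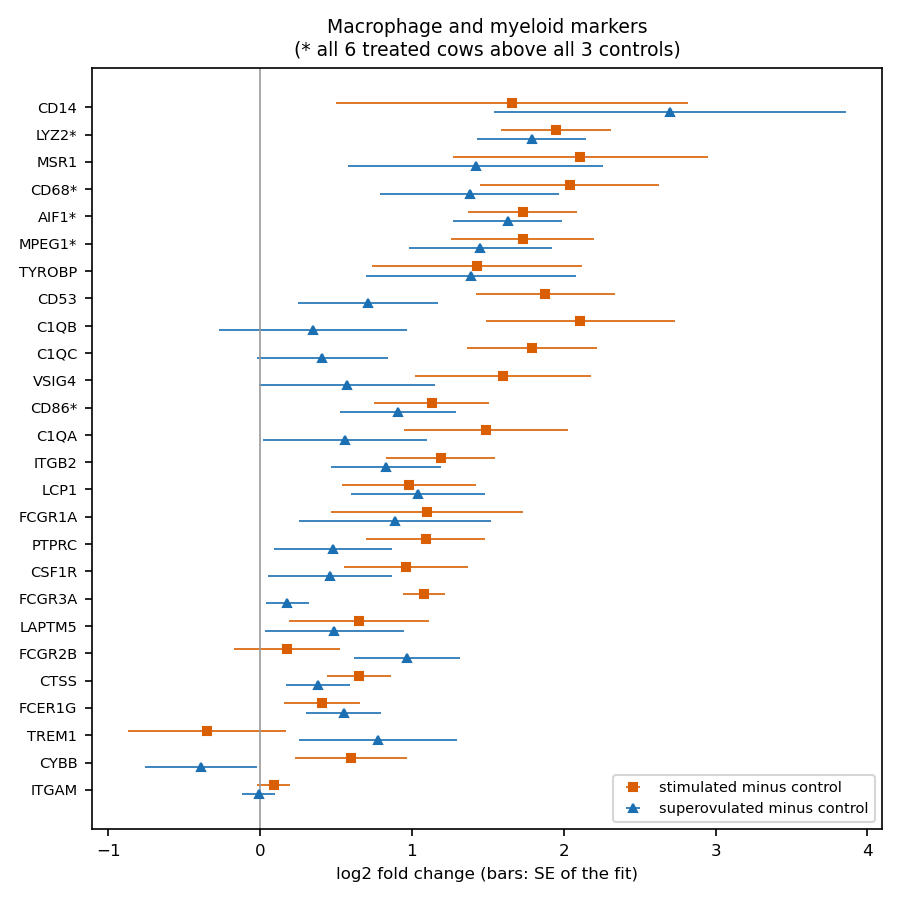
Log2 fold change of the 26 measured macrophage and myeloid markers in stimulated (squares) and superovulated cows (triangles) against the same 3 controls, with the standard error of the fit as bars; stars mark the 5 genes in which all 6 treated cows read above all 3 controls. The stimulated squares of C1QB, at 2.11, and FCGR3A, at 1.08, lie well to the right of their superovulated triangles, at 0.35 and 0.18, while LYZ2 and AIF1 lie close together.

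Markers of other blood cells were looked at in the same way. Among 13 neutrophil markers 1 was higher without overlap, ELANE (0.14), and 1 lower, MMP9, beside 1.48% and 0.941% of all genes. The calgranulin S100A9, which is abundant in neutrophils, read 7.81, 9.27 and 10.17 in controls, 6.30, 5.00 and 5.24 in stimulated cows and 9.54, 10.32 and 9.44 in superovulated cows. It was thus low in the stimulated cows, while the superovulated cows lay within or just above the range of the controls. Of 24 T and natural killer cell markers CD5 was the 1 higher without overlap, by 0.14 at a signal near 2, and of 9 B and plasma cell markers there were 0. The median over the erythrocyte markers was -0.01.

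Genes of the lysosome, which degrades ingested and stored material, had small differences. Of 22 measured, 2 were higher without overlap and 0 lower, beside 1.48% and 0.941% of all genes, 17 had a positive log2 fold change, and the median was 0.17. GLB1, the lysosomal beta-galactosidase, was higher by 0.51 (SE 0.16), its second probe set by 0.10, and its separation was narrow: control 1 read 9.33 and stimulated cow 1 read 9.34. TPP1, a lysosomal peptidase, was higher by 0.37 at a low signal. CCL14, a chemokine, lay just outside the criterion. Its treated cows read 10.07 to 10.68, above controls 1 and 3 at 9.09 and 9.06, but control 2 read 10.21.

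Interferon-stimulated genes, which cells switch on in antiviral defence and, in cattle, also in response to the embryo's interferon tau, were higher in the stimulated cows for the most part. Of 33 measured, 2 were higher without overlap, UBA7 and IFIT5, 0 were lower and 11 were higher at an unadjusted p under 0.05, beside 1.48%, 0.941% and 3.32% of all genes. The separation of IFIT5 was narrow, with control 2 at 11.06 and the lowest treated cows at 11.07. The median was 0.48, with 0.60 in stimulated and 0.13 in superovulated cows. UBA7, the enzyme that activates the ubiquitin-like ISG15, read 7.72, 7.91 and 7.36 in controls, 9.09, 8.56 and 8.55 in stimulated cows and 8.31, 8.01 and 8.02 in superovulated cows. Superovulated cows stood between the controls and the stimulated cows (0.45 against 1.07, unadjusted p of the difference 0.013, limma adjusted p = 0.433). GBP5, a guanylate binding protein induced by interferon gamma, had the largest difference of the list, 2.06 (SE 0.63), but superovulated cow 2, at 5.12, lay within the controls, at 4.37 to 5.77. In antigen presentation TAPBP, the peptide-loading protein tapasin, was the 1 of 18 genes higher without overlap, by 0.24.

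Transcripts of luteal steroid production were counted in the same way. Among 14 genes of progesterone synthesis and 10 markers of luteal steroidogenic cells, 0 were without overlap in either direction, beside 2.42% of all genes, a share so low that a count of 0 in lists of this length is no result. The medians were both -0.03. HSD3B1, which makes progesterone from pregnenolone, read 14.57, 14.46 and 14.44 in controls and 14.21 to 14.53 in treated cows (log2 fold change -0.11, SE 0.07). The prostaglandin F2alpha receptor PTGFR, through which luteal regression is triggered, read 13.90 ± 0.01 in controls and 13.77 ± 0.17 in treated cows. Its dimmer probe sets differed by -0.48 and -0.26, and on each of them 5 of the 6 treated cows lay below all controls. LHCGR, the receptor for luteinising hormone and for eCG itself, read 7.07, 5.44 and 5.88 in controls, and all 6 treated cows, at 5.97 to 6.62, lay inside that range. Over 68 genes of oxidative phosphorylation 0 were without overlap, beside 2.42% of all genes. Of the 68, 62 had a negative and 6 a positive log2 fold change, from -0.19 to 0.05, and the median was -0.06. The mean signal over this list overlapped, at 12.65 to 12.83 in controls and 12.56 to 12.82 in treated cows.

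Vascular genes were likewise mixed. VEGFA, the main growth factor for luteal capillaries, read 11.84, 12.33 and 12.09 in controls, 11.92, 11.90 and 11.87 in stimulated cows and 11.68, 11.44 and 11.33 in superovulated cows. Superovulated cows lay under all controls, while the stimulated cows lay just above control 1. The pooled log2 fold change was -0.40 (SE 0.12, limma adjusted p = 0.929), made of -0.19 and -0.61. The dimmer VEGFA probe set did not repeat this order. On it the superovulated cows, at 7.22 to 7.94, lay within the controls, at 7.03 to 7.96. Its differences were -0.27 in stimulated and -0.02 in superovulated cows. The VEGFA receptors differed by -0.15 (FLT1) and 0.08 (KDR). VEGFC, which acts on lymphatic vessels, was the 1 of 31 angiogenic genes that was lower without overlap, beside 0.941% of all genes. THBD, the endothelial anticoagulant receptor thrombomodulin, read 6.18, 5.93 and 5.97 in controls and 6.78 to 8.11 in treated cows (log2 fold change 1.12, SE 0.31, limma adjusted p = 0.929). Of 19 endothelial markers 0 were without overlap, beside 2.42% of all genes in either direction. At these shares counts of 0 or 1 in lists of this length are no result.

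Among the remaining groups, FST, the activin-binding protein follistatin, had a pooled log2 fold change of 1.9 (SE 0.72) with overlap. FST read 7.99, 5.88 and 8.17 in controls, 10.24, 10.01 and 9.65 in stimulated cows and 6.79, 9.64 and 9.18 in superovulated cows, of which cow 1 lay within the controls. Cell cycle genes had a negative median of -0.37 over 51 genes, 45 of them negative, and 1 was lower without overlap, beside 0.941% of all genes. The lower gene without overlap, CDKN2C, is an inhibitor of the cycle rather than a driver, and differed by -0.59 (SE 0.15). The negative median rested on control 2, whose mean over the list was 8.44 against 7.24 and 7.56 in the other controls, and was 0.01 without it. Superovulated cow 3 had the lowest mean of all cows, 6.34 against 7.78 and 8.25 in its group. In 16 of the 32 lists 0 members were without overlap in either direction.

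**Figure D4:**
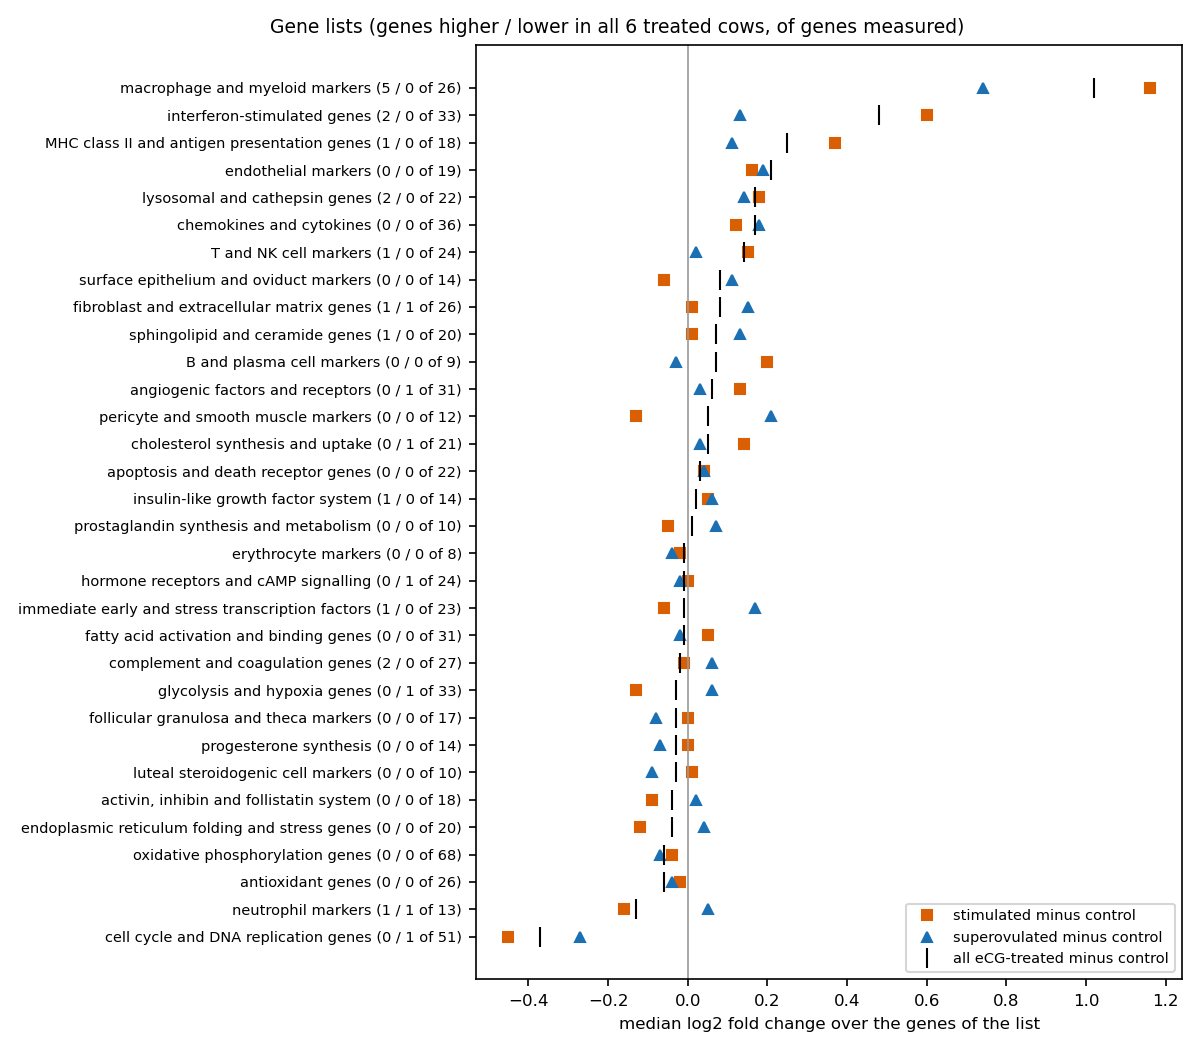
Median log2 fold change of each of 32 gene lists in all eCG-treated (black mark), stimulated (square) and superovulated cows (triangle) against the same 3 controls, with the number of genes higher and lower in all 6 treated cows and the number measured beside each name. Macrophage and myeloid markers, at a median of 1.02, and interferon-stimulated genes, at 0.48, stand at the top, and the cell cycle genes, at -0.37, at the bottom.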

How the data were processed

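The study's 9 arrays were used as deposited by the authors in 1 table, whose values are in no standard unit because each number had lost its decimal mark. The mark was restored from the digits under a log2 limit of 16. Runs that begin with 1 were open (15.5% of cells); most were settled by the other arrays or, at a posterior of 0.95, by the spread between arrays. Undecided were 47 probe sets, which were left out. Among the probe sets open on all 9 arrays 1.53 wrong readings are expected. For those settled by the other arrays no such number was estimated. The log2 scale is inferred; the sources used here do not give summarisation or normalisation, and no further normalisation was applied. Arrays have no read depth; their number sets the precision.

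Probe sets were fitted with limma 3.58.1 (R 4.3.3) with 1 mean per group; eCG-treated is the mean of both regimens (6 residual degrees of freedom), 2-sided, adjusted by Benjamini-Hochberg. In data simulated for eCG-treated against control over 23970 probe sets, 77% of 100 raised by 1 on the log2 scale and 96% of 100 altered by -2 were called. The simulated noise was independent and normal. The altered probe sets were drawn at random and changed equally in both regimens. These shares hold for that setting only: in the data 177 probe sets differed by more than 1 and 0 passed. SE is that of the moderated fit.

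Of the probe sets 13292 carried 1 symbol in the platform's table, 86 several and 10638 none. Named genes were, per direction, the 12 without overlap with the smallest unadjusted p (0 passed), the 5 largest, up to 3 whose regimens differed most, up to 3 per list by p, and 13 genes of interest. Members and lists were chosen with earlier results of these data known. Alternatives covered the fit, the scaling, dim probe sets, open digit runs and each array left out.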

Additional observations from a re-analysis of the deposited data

Results flagged for a closer look

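PRSS2 differed between the regimens: superovulated minus stimulated was 6.80 on the log2 scale, the 1 probe set with a limma adjusted p under 0.05 in that test (0.001). The regimens lay on opposite sides of the controls, all 3 stimulated cows below and all 3 superovulated cows above. The separation above was narrow, with superovulated cow 3 at 8.57 and control 2 at 8.55.

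In 9 of the 125 named genes 1 of the 6 treated cows stood apart from the other 5 by Dixon's criterion, which chance meets in about 1 of 20 groups. The 6 treated cows span both regimens. Stimulated cow 3 was low in SLC25A51 (6.62, the others 6.98 to 7.04) and high in BLNK (4.14, the others 3.59 to 3.78). Stimulated cow 2 was low in NUP188 (6.50, the others 6.59 to 6.64) and high in EPCAM (3.23, the others 2.37 to 2.5). Superovulated cow 1 was low in TAPBP (9.88, the others 10.05 to 10.13) and in FST (6.79, the others 9.18 to 10.24), and high in MYH11 (11, the others 9.41 to 10). Superovulated cow 2 was high in PTGES (4.37, the others 3 to 3.37) and low in AHSP (3.20, the others 3.60 to 3.81).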

How the results depend on the processing

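In eCG-treated against control cows 0 probe sets passed under every alternative run. The smallest adjusted p ranged from 0.0503 (CCL14, without control 2) to 0.604 (without superovulated cow 2). The count at an unadjusted p under 0.05 ranged from 907 (without control 3) to 1697 (with the replicate block), beside 1229. Probe sets without overlap numbered 604 after quantile normalisation, 524 with array medians aligned, 428 without the dimmest 25% and 448 without open digit runs, beside 556. Leaving out 1 array eases the criterion by construction and gave 713 to 1902, with 1497, 1902 and 1346 without control 1, 2 and 3 and 843 without stimulated cow 3. Passing probe sets in stimulated against control cows numbered 0 (without stimulated cow 3) to 4 (without superovulated cow 3), with 2 without control 2, beside 1; in superovulated against control cows 0 to 1 (1 without stimulated cow 3), beside 0. In superovulated against stimulated cows they numbered 2 under quantile normalisation, aligned medians and no open digit run, and 1 to 3 with 1 array left out (2 without stimulated cow 3, 3 and 2 without superovulated cow 1 and 3), beside 1. The cause was not tested.

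The labels number the cows 1 to 3 in each group, and the labels give no shared origin. Of same-numbered pairs 7 of 9 deviated together (r over 0.1; range -0.031 to 0.38), against 2 of 18 pairs of other numbers (-0.354 to 0.257), and 6 of 9 cows correlated best with their own number. This is a hint from the data of a shared effect of the number; as not every pair was over 0.1, the number was not treated as a pairing. With it as a replicate block 0 probe sets passed in eCG-treated against control (smallest adjusted p 0.106) and 3 in stimulated against control.

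Of the 125 named genes 118 kept their sign under all alternatives run, as did the 24 ranked by p. The exceptions were FLT1, LHCGR, CYP11A1, AHSP, STAR, OXT and PGR. The median kept its sign in 15 of 32 lists. That of the myeloid list ranged from 0.67 to 1.27, that of the interferon list from 0.32 to 0.53 and that of the cell cycle list from -0.58 to 0.01. With 3 controls, small differences between groups could not be resolved.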
